A study of Mus musculus with 18 samples.

Results

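The comparison of Lmna knockout with WT hearts at 1 month of age used 6 of the 18 hearts of the series, 3 of each genotype, and was chosen by genotype and age as the labels give them. Of the 47069 genes in the count table, 12815 exceeded 5 counts in all 6 hearts and were tested, with no preference for the pathways that the study followed. Whole hearts came from C57BL/6 mice of a line with the targeted Lmna allele Lmna tm1Stw. The Lmna-/- mice were homozygous for it in the whole body and the WT mice came from the same breeding, so no group carried a cell-type-specific deletion or a treatment. Each library was 1 heart, and the study describes the homozygotes as severely growth-retarded at this age. Body size and heart weight were not analysed here, and differences that follow body growth cannot be told apart from those of genotype.

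Lmna encodes the A-type lamins, lamin A and lamin C, filament proteins that line the inner side of the nuclear envelope and anchor chromatin. They also couple the nucleus to the cytoskeleton through proteins of the nuclear membrane. Mutations in this gene are known for dilated cardiomyopathy with conduction disease, for muscular dystrophy and for lipodystrophy. A heart under mechanical load or injury commonly re-expresses fetal isoforms of contractile proteins and natriuretic peptides, and it may remodel its matrix and its capillaries, so these groups of genes were followed here.

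The 6 libraries held 10673094 to 24049579 counts, of which 52.5% to 55.21% in the Lmna-/- hearts and 57.55% to 59.47% in the WT hearts fell on genes of the mitochondrial genome. Values below are counts scaled to library size (CPM) after trimmed-mean (TMM) scaling, listed for replicates 1, 2 and 3 of a genotype in that order, and 3 counts, the level that a count of 0 allows, corresponded to 0.125 to 0.281 CPM (counting error only). Replicates differed by more than sampling noise, with a chi-square per degree of freedom of 6.66 to 13.4, so all were kept as separate hearts. Their log2 CPM correlated at 0.9822 to 0.9851 within Lmna-/-, 0.9846 to 0.9878 within WT and 0.9711 to 0.9811 between genotypes.

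The hearts also differed in their sex-linked transcripts. Xist, the RNA of the inactive X chromosome, had 1744 and 4255 counts in WT replicates 1 and 3, 1 count in WT replicate 2, and 16, 3 and 6 counts in the Lmna-/- hearts. The Y-linked gene Ddx3y showed the converse, with 0, 894 and 1 counts in the WT hearts and 1421, 693 and 749 in the Lmna-/- hearts. WT replicate 2 was therefore the only WT heart with the same pattern as the Lmna-/- hearts, and within these 6 hearts a term for Xist rested on that heart alone. For this reason the counts of DEGs in each gene list are given also from a fit over all 18 hearts of the series with a common Xist term, called the 18-heart fit below. It also holds the hearts of 1 week and 2 weeks of age. An adjusted p there thus depends on the spread at every age as well as on the fold change. The named DEGs that this fit did not call are listed after the gene lists. In that fit the Xist term itself was called for 3 genes (Kdm6a, Eif2s3x and Kdm5c), all of which escape X inactivation. Only genes above 5 counts in all 6 hearts of 1 month were tested there, so Xist and Ddx3y themselves were left out.

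The targeted gene followed the labels in every heart. Lmna was 14.3, 12.8 and 12.6 CPM in the Lmna-/- hearts and 41.5, 45.2 and 45.3 CPM in the WT hearts (log2 fold change -1.73 ± 0.1, adjusted p = 3.55e-06, where the value after ± is the standard error throughout). Counts cover the whole gene, also exons outside the deleted part, so the reads that remained do not measure intact transcript. Rps3a1, a ribosomal protein gene 2.34 Mb from Lmna on chromosome 3, was 50.0, 42.4 and 42.3 CPM against 136, 111 and 120 CPM (log2 fold change -1.44 ± 0.11, adjusted p = 3.57e-05), and was lower by a similar size at 2 weeks (log2 fold change -1.48). Rps3a2, annotated as a processed pseudogene and named as a copy of it, had 56, 25 and 38 counts in the Lmna-/- hearts and 2, 3 and 3 in the WT hearts, so how reads were shared between the copies, and with it the size of the Rps3a1 difference, is uncertain. Within 10 Mb of Lmna (chr3:88480147-88509956, mm10), 25 of 197 tested genes were differentially expressed, or 12.7% of them, with Lmna itself among the 25, beside 9.75% of all genes tested. Without Lmna-/- replicates 1, 2 and 3 the count within 10 Mb was 13, 17 and 15, and without WT replicates 1, 2 and 3 it was 12, 23 and 10. Over all genes these fits called 633, 977 and 664, and 499, 1210 and 386. The 18-heart fit called 12 of the 197 genes, beside 727 of 12815 in all, so the share near Lmna was close to that of all genes there.

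Of the genes tested, 1249 were differentially expressed (DEGs) at an adjusted p under 0.05 in the quasi-likelihood test of edgeR, with 516 up-regulated (4.03%) and 733 down-regulated (5.72%) in Lmna-/- hearts. The median absolute log2 fold change of these DEGs was 0.57, and the median log2 fold change of all genes was 0.02. In the 18-heart fit 248 were up-regulated (1.94%) and 479 down-regulated (3.74%), 660 of the 1249 were called again, and all 1249 kept their sign. That fit holds the same 6 hearts, so kept signs were favoured by the choice of DEGs. The 3 values of one genotype lay entirely above those of the other for 29.8% of all genes tested and for 1231 of the 1249 DEGs. With an Xist term within the 6 hearts, 0 genes were up-regulated and 4 down-regulated by the edgeR test, although 1593 genes had an unadjusted p under 0.05 there.

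The number of DEGs depended on single hearts. Leaving out Lmna-/- replicates 1, 2 and 3 gave 633, 977 and 664 DEGs, and leaving out WT replicates 1, 2 and 3 gave 499, 1210 and 386. DESeq2 called 362 genes up and 657 down. Scaling by library size alone, in place of TMM, moved the median log2 fold change of all genes from 0.02 to 0.24 and the up-regulated share of the calls from 41.31% to 91.44% (2520 up and 236 down). Directions below are thus relative to a scale on which the typical gene did not differ. Of 153 genes followed singly in the paragraphs that follow, Lmna and Rps3a1 included, 106 were DEGs, and none of these changed sign under any setting. Genes picked as DEGs in these hearts can hardly change sign in fits that share most of the hearts, so kept signs do not test direction. Of the 106, 57 stayed DEGs without each of the 6 hearts in turn, and the hearts on which the other 49 depended are given beside them. The further genes near Lmna that are named under other observations are not among the 153.

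By size of change, the 5 strongest up-regulated DEGs were Myh7, Serpina3n, Gpnmb, Dusp4 and Spp1. Serpina3n, a secreted protease inhibitor of the acute phase, was 23.1, 5.37 and 11.1 CPM in Lmna-/- and 1.84, 2.44 and 1.75 CPM in WT hearts (log2 fold change 2.79 ± 0.43, adjusted p = 0.00359). Its difference was carried most by Lmna-/- replicate 1, without which the log2 fold change was 2.07. Gpnmb, a glycoprotein of lysosome-rich phagocytes, was 9.81, 4.83 and 5.74 CPM against 1.28, 1.37 and 1.15 CPM (log2 fold change 2.47 ± 0.29, adjusted p = 0.000977). Spp1, the matricellular cytokine osteopontin, was 2.44, 2.69 and 2.98 CPM against 0.921, 0.533 and 0.46 CPM (log2 fold change 2.1 ± 0.3, adjusted p = 0.00239). The 5 were picked by size among DEGs with a mean of at least 1 CPM and no overlap between genotypes, so the lack of overlap is not a result. The 18-heart fit called each of the 5.

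The 5 strongest down-regulated DEGs were 2210407C18Rik, Gm28437, Itgb6, Kcnv2 and Gm28979. The uncharacterised gene 2210407C18Rik was 0.527, 0.716 and 1.19 CPM in Lmna-/- and 4.11, 5.94 and 6.58 CPM in WT hearts (log2 fold change -2.83 ± 0.3, adjusted p = 0.000726). Itgb6, the integrin subunit whose dimer with the alpha-v subunit activates latent TGF-beta, was 2.11, 6.89 and 9.02 CPM against 27.8, 24.2 and 24.6 CPM (log2 fold change -2.17 ± 0.31, adjusted p = 0.00256). For these 2 genes the margin between the highest Lmna-/- heart and the lowest WT heart was wide, although a lack of overlap was again a condition of the choice. Kcnv2, a silent subunit that modifies Kv2 potassium channels, was 1.05, 1.34 and 1.34 CPM against 5.53, 3.73 and 4.92 CPM (log2 fold change -1.95 ± 0.24, adjusted p = 0.000977), and the long noncoding gene Gm28979 had a log2 fold change of -1.84. Gm28437 lies in a nuclear copy of mitochondrial sequence, and its value rested on WT replicate 3 (9.57, 8.68 and 9.91 CPM against 17, 18.5 and 153 CPM). Without WT replicate 3 its log2 fold change was -0.92, and the call was lost without Lmna-/- replicate 1, 2 or 3 (adjusted p 0.0572 to 0.0704).

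Fetal and load-responsive genes had the largest up-regulated share of all lists. This list was written with earlier results of these data known. It holds genes that the study reports as up-regulated in these hearts (Myh7, Nmrk2, Fhl1 and Hspb1), so its share is a description. Of 26 genes of the natriuretic and fetal stress program, 23 were tested, of which 10 were up-regulated and 2 down-regulated, beside 4.03% and 5.72% of all genes. Their median log2 fold change was 0.48 against 0.02 for all genes. The 18-heart fit kept 7 and 2, and leaving out Lmna-/- replicates 1, 2, 3 and WT replicates 1, 2, 3 in turn gave 9, 10, 10, 9, 9 and 8 up-regulated genes. Robust estimation of the spread in edgeR left 5 up-regulated and 2 down-regulated. Series of 6 counts below follow this order of the heart left out. Counts of DEGs in every list below stand beside the same shares of all genes, 4.03% up-regulated and 5.72% down-regulated. Some genes belong to more than 1 list and are then counted in each.

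Myh7, the slow beta-myosin heavy chain that the mouse ventricle replaces by the alpha chain around birth, was 1359, 239 and 404 CPM in the Lmna-/- hearts and 32.7, 26.7 and 42.1 CPM in the WT hearts (log2 fold change 4.3 ± 0.51, adjusted p = 0.000977). Every Lmna-/- heart was well above the WT hearts, and replicate 1 was above the other 2 by more than 3-fold. Without Lmna-/- replicate 1 the log2 fold change of Myh7 was 3.24 and the gene was still a DEG. Ankrd1, a nuclear and sarcomeric ankyrin-repeat protein induced by stretch, was 1878, 736 and 805 CPM against 312, 355 and 252 CPM (log2 fold change 1.9 ± 0.29, adjusted p = 0.00327). Nppa, which encodes atrial natriuretic peptide, was 532, 258 and 262 CPM against 142, 168 and 114 CPM (log2 fold change 1.32 ± 0.24, adjusted p = 0.00701). The genotypes did not overlap for Nppa. The 18-heart fit gave it a similar log2 fold change with a larger standard error (1.43 ± 0.95) and an adjusted p of 0.413. Nppb, the gene of B-type natriuretic peptide, overlapped between genotypes at 73.9, 43 and 35.6 CPM against 17.2, 31.8 and 36.1 CPM and was not called (log2 fold change 0.85 ± 0.27, adjusted p = 0.0626).

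The start regions of 3 of these load-responsive genes are shown because they are the long-known fetal and stretch markers of this list that were up-regulated. The sequences are the 250 bases before the RefSeq start (GRCm38.p6), 5′ to 3′ on the strand of the gene. Capitals mark matches on either strand to 3 motifs. The M-CAT element, bound by TEAD factors, was searched as CATTCC. The site of GATA factors was searched with the letters AGATAA, and the site that the basal machinery binds near the start with TATAAA. The windows are chr14:54994627-54994876 on the minus strand for Myh7, chr19:36119845-36120094 on the minus strand for Ankrd1 and chr4:148000472-148000721 on the plus strand for Nppa.
Myh7: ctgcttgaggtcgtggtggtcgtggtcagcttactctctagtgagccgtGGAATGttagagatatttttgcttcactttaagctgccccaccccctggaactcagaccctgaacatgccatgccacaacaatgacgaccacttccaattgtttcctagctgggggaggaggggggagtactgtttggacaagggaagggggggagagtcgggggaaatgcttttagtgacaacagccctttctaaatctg
Ankrd1: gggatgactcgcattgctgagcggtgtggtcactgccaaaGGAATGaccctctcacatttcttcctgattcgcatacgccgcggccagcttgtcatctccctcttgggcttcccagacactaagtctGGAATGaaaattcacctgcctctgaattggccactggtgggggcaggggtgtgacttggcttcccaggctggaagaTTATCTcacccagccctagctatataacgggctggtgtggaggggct
Nppa: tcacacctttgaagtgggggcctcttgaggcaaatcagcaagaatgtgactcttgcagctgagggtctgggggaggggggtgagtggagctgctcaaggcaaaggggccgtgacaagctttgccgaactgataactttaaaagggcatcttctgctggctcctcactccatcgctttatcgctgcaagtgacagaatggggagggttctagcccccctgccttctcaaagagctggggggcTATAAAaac
The M-CAT letters were found on the opposite strand once in Myh7, from position -201, and 2 times in Ankrd1, from positions -210 and -123 relative to the start, and nowhere in Nppa. The GATA letters were found on the opposite strand of Ankrd1 and the TATA box on the strand of Nppa. None of the 3 windows held a CArG box, the site of serum response factor. Of 32851 promoter windows of this length, 12.6% held the M-CAT, 9.99% the GATA, 12.4% the TATA letters and 1.47% a CArG box, so the first 3 are common, and no overlap between motifs occurred. A match is a run of letters and not evidence of a bound factor.

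Other up-regulated members had varied roles. Nmrk2, a nicotinamide riboside kinase of striated muscle that feeds NAD synthesis, was 20.4, 17.2 and 28.3 CPM in Lmna-/- and 4.75, 6.32 and 7.73 CPM in WT hearts (log2 fold change 1.79 ± 0.2, adjusted p = 0.000881). Uchl1, a ubiquitin hydrolase better known from neurons, was 8.14, 4.66 and 4.92 CPM against 2.27, 2.13 and 2.25 CPM (log2 fold change 1.44 ± 0.24, adjusted p = 0.00463). Ncam1, a neural cell adhesion molecule of developing muscle, rose with a log2 fold change of 1.16, and Fhl1, a LIM protein of stretched sarcomeres, with 1.18. All of these 4 were DEGs without each heart in turn, and Fhl1 missed the threshold in the 18-heart fit (log2 fold change 1.19 ± 0.36, adjusted p = 0.0598). Cdkn1a, the cell cycle inhibitor p21, was 27.4, 18.4 and 24.9 CPM against 16.8, 5.18 and 6.95 CPM (log2 fold change 1.32 ± 0.3, adjusted p = 0.0195), its call was lost without Lmna-/- replicate 1 or 3 or WT replicate 3 (adjusted p 0.0535 to 0.0835), and without WT replicate 1 its log2 fold change was 1.93. Ccn2, a matricellular growth factor induced through YAP and TGF-beta, was 127, 49.6 and 52.9 CPM against 33.1, 34.9 and 38.6 CPM (log2 fold change 1.12 ± 0.28, adjusted p = 0.0252). Its call was lost without WT replicate 1, 2 or 3 (adjusted p 0.0634 to 0.0974), and without Lmna-/- replicate 1 its log2 fold change was 0.53. The 2 down-regulated members were Tuba8, an alpha-tubulin (log2 fold change -1.11), and Fhl2, a LIM protein abundant in cardiomyocytes (log2 fold change -0.62, lost without WT replicate 1 or 3 (adjusted p 0.0643 to 0.067)).

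**Figure D1:**
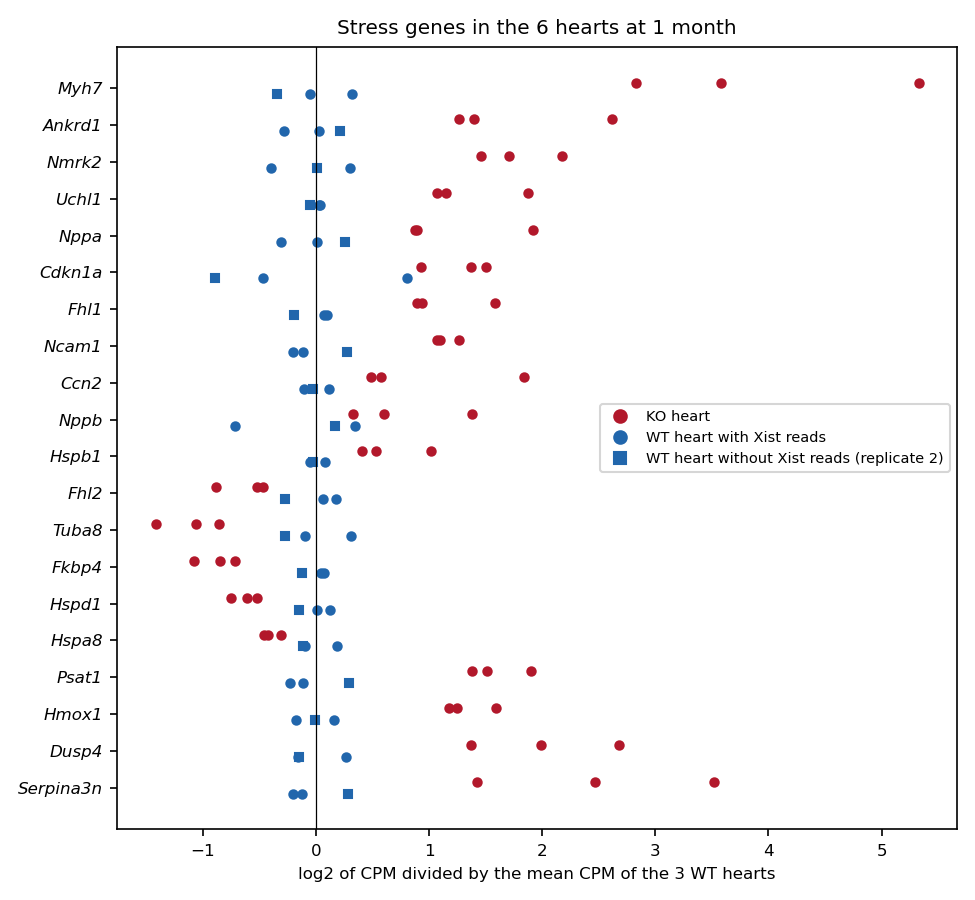
Log2 of CPM divided by the mean CPM of the 3 WT hearts (horizontal axis) for 20 stress genes, with 1 point per 1-month heart, red for Lmna-/- (KO), blue for WT and a square for the WT heart without Xist reads (replicate 2). All 3 red points for Myh7, Ankrd1 and Dusp4 lie to the right of the blue ones and those for Fkbp4 and Hspd1 to the left, whereas the points for Nppb overlap.

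Chaperone genes lay mostly on the lower side relative to the typical gene. Of 32 chaperone and heat-shock genes, all tested, 8 were down-regulated (25% of the list, beside 5.72% of all genes) and 1 up-regulated (3.12%, beside 4.03%). Library size scaling turned this balance to 3 down-regulated and 4 up-regulated. The median log2 fold change was -0.25 (-0.03 with library size scaling, where the median of all genes was 0.24). The fits without 1 heart left 6, 6, 7, 6, 10 and 5 down-regulated, and the 18-heart fit 5. Fkbp4, an HSP90 co-chaperone of steroid receptors, was 68.1, 87.8 and 80.1 CPM in Lmna-/- and 149, 132 and 152 CPM in WT hearts (log2 fold change -0.88 ± 0.11, adjusted p = 0.000977). Hspd1, the mitochondrial chaperonin HSP60, was 111, 122 and 130 CPM against 204, 168 and 187 CPM (log2 fold change -0.63 ± 0.1, adjusted p = 0.00433). Dnaja1, a cytosolic DNAJ co-chaperone, was down-regulated with a log2 fold change of -0.5. Hspa8, the constitutive HSP70, had a log2 fold change of -0.4, and its call was lost without Lmna-/- replicate 2 or 3 or WT replicate 1 or 3 (adjusted p 0.0781 to 0.117). The exception was Hspb1, the small heat-shock protein HSP27, at 77.8, 55.3 and 51 CPM against 36.9, 37.7 and 40.5 CPM (log2 fold change 0.68 ± 0.14, adjusted p = 0.0111). The inducible HSP70 gene Hspa1a was 2.25, 0.627 and 1.42 CPM against 0.921, 1.07 and 0.92 CPM and was not called (log2 fold change 0.67 ± 0.38, adjusted p = 0.29).

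Targets of 3 stress transcription factors gave smaller counts. Of the 24 tested p53 targets, 6 were up-regulated (25%, beside 4.03% of all genes) and 1 down-regulated, 22 had a positive log2 fold change and the median was 0.37. With each heart dropped in turn, 3, 7, 4, 4, 6 and 2 were up-regulated, and the 18-heart fit left 4. Perp, a membrane protein of desmosomes and apoptosis, was 150, 116 and 106 CPM against 69.6, 64.5 and 62.8 CPM (log2 fold change 0.92 ± 0.12, adjusted p = 0.00162). Trp53inp1, a regulator of p53 and autophagy, was 59.3, 32.6 and 34.2 CPM against 21.5, 24.4 and 15.5 CPM (log2 fold change 1.06 ± 0.21, adjusted p = 0.0111), and was lost without WT replicate 3 (adjusted p 0.0507). Mdm2, which degrades p53 and is itself one of its best-known targets, was not called at 35.8, 37.2 and 32.7 CPM against 32.8, 32.5 and 32.2 CPM (log2 fold change 0.12 ± 0.09, adjusted p = 0.446), and Ccng1, another direct target, was down-regulated at 413, 400 and 376 CPM against 684, 529 and 552 CPM (log2 fold change -0.57 ± 0.11, adjusted p = 0.0101).

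Of 33 tested ATF4 targets of the integrated stress response, 2 were up-regulated (6.06%, beside 4.03% of all genes) and 5 down-regulated (15.2%, beside 5.72%), with a median log2 fold change of 0.07. The 18-heart fit called 1 and 3, and library size scaling gave the opposite balance, with 10 up-regulated and 2 down-regulated. The down-regulated count was 2, 4, 2, 3, 4 and 2 without each heart in the same order, and the up-regulated count was 1, 2, 2, 1, 3 and 1. Psat1, an enzyme of serine synthesis, was 6.03, 4.21 and 4.62 CPM against 1.49, 1.98 and 1.38 CPM (log2 fold change 1.66 ± 0.23, adjusted p = 0.00201). Mthfd1l, of mitochondrial folate metabolism, had a log2 fold change of 1.22, lost without Lmna-/- replicate 1, 2 or 3 or WT replicate 1 or 3 (adjusted p 0.0597 to 0.16). Gpt2, a mitochondrial alanine aminotransferase, was down-regulated (log2 fold change -0.67 ± 0.12, adjusted p = 0.00716). Neither Atf4 (log2 fold change 0.07 ± 0.11, adjusted p = 0.739) nor Ddit3, which encodes CHOP (log2 fold change 0.46 ± 0.19, adjusted p = 0.136), was called.

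Of 32 tested NRF2 targets, 3 were up-regulated (9.38%, beside 4.03% of all genes) and 2 down-regulated (6.25%, beside 5.72%). The 18-heart fit called 1 and 2, library size scaling 14 and 0, and leaving out 1 heart at a time gave 1, 5, 3, 1, 2 and 1 up-regulated. Hmox1, heme oxygenase 1, was 8.76, 6.89 and 6.56 CPM against 3.26, 2.89 and 2.58 CPM (log2 fold change 1.37 ± 0.18, adjusted p = 0.00162). Prdx1, a peroxiredoxin, fell from 124, 105 and 106 CPM in WT to 81.2, 81.7 and 79.3 CPM in Lmna-/- hearts (log2 fold change -0.47 ± 0.09, adjusted p = 0.0102). Nqo1, a quinone reductase and standard reporter of NRF2, was 26.1, 18 and 20.6 CPM against 16.6, 16.4 and 15.3 CPM, which did not overlap but missed the threshold (log2 fold change 0.44 ± 0.13, adjusted p = 0.0536).

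Immediate early genes, which respond within minutes to growth factors, stretch or handling of the tissue, had 8 of 26 tested members up-regulated (4 with robust estimation) and none down-regulated, with a median log2 fold change of 0.46. The 8 were 30.8% of the list, beside 4.03% of all genes. No member had a lower value at an unadjusted p under 0.05, and DESeq2 called 5 up-regulated and 0 down-regulated. The count was 4, 8, 4, 3, 11 and 2 up-regulated without each heart in turn. The 18-heart fit of edgeR called 0 members in either direction, with 5 higher and 0 lower at an unadjusted p under 0.05. Egr1, a zinc-finger factor, was 44.6, 30.1 and 45.8 CPM against 11.8, 24.7 and 10.3 CPM (log2 fold change 1.4 ± 0.26, adjusted p = 0.00795), and Egr2 was 4.26, 2.51 and 3.06 CPM against 0.921, 1.22 and 0.828 CPM (log2 fold change 1.79 ± 0.28, adjusted p = 0.00407). WT replicate 2 had the highest WT value of both. Junb, an AP-1 subunit, had a log2 fold change of 1.16, lost without WT replicate 3 (adjusted p 0.0538), and Fos, its partner, spread from heart to heart (30.5, 14 and 16.8 CPM against 8.43, 17.1 and 3.31 CPM) and was not called (log2 fold change 1.18 ± 0.42, adjusted p = 0.0934).

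Of 17 tested genes of ERK feedback, which the MAP kinase ERK induces and which restrain its signal, 6 were up-regulated (35.3%, beside 4.03% of all genes) and 2 down-regulated (11.8%, beside 5.72%). The 18-heart fit kept 3 and called 1 lower. Leaving out 1 heart at a time gave 4, 5, 4, 4, 6 and 4 up-regulated and 1, 2, 1, 2, 1 and 0 down-regulated. Dusp4, a nuclear MAP kinase phosphatase, was 7.56, 3.04 and 4.7 CPM in Lmna-/- and 1.42, 1.07 and 1.06 CPM in WT hearts (log2 fold change 2.17 ± 0.32, adjusted p = 0.00303). Etv5, an ETS factor induced by FGF signalling, was 24.8, 21.2 and 18.9 CPM against 8.86, 8.61 and 9.43 CPM (log2 fold change 1.27 ± 0.12, adjusted p = 0.000362), and both were called in the 18-heart fit. Dusp5, another nuclear ERK phosphatase, was 10.3, 8.86 and 9.02 CPM against 4.6, 5.03 and 4.37 CPM (log2 fold change 1.02 ± 0.14, adjusted p = 0.00214). Its log2 fold change in the 18-heart fit was 0.61 ± 0.29, with an adjusted p of 0.238. Dusp6, the cytosolic ERK phosphatase, overlapped between genotypes (log2 fold change -0.12 ± 0.15, adjusted p = 0.638), and Dusp8, which acts on JNK and p38, was down-regulated (log2 fold change -0.62 ± 0.13, adjusted p = 0.0129) and was lost without WT replicate 3 (adjusted p 0.0623).

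Among 40 tested genes of the glucocorticoid and fasting response, 5 were up-regulated (12.5%, beside 4.03% of all genes) and 3 down-regulated (7.5%, beside 5.72%), with a median of 0.10. The 18-heart fit called 4 and 3, while robust estimation left 2 and 3. With each heart left out in turn there were 4, 4, 4, 2, 5 and 1 up-regulated. Fkbp5, a glucocorticoid-induced immunophilin, was 31.4, 13.5 and 8.27 CPM against 7.93, 4.8 and 5.98 CPM (log2 fold change 1.55 ± 0.37, adjusted p = 0.023). It was highest in Lmna-/- replicate 1, its log2 fold change was 0.79 without that heart, and its call was lost without Lmna-/- replicate 1 or WT replicate 1, 2 or 3 (adjusted p 0.054 to 0.0787). Plin5, a lipid droplet protein of oxidative muscle, was 15.5, 24.3 and 17.7 CPM against 36.5, 28.6 and 37.4 CPM (log2 fold change -0.86 ± 0.15, adjusted p = 0.00701). Pdk4, which blocks glucose oxidation in fasting, was not called (log2 fold change 0.26 ± 0.14, adjusted p = 0.255). Of 21 clock genes, 4 were up-regulated (19%, beside 4.03% of all genes) and 1 down-regulated (4.76%, beside 5.72%), 2 and 1 in the 18-heart fit and 1 and 1 with robust estimation. Their counts without each heart were 2, 1, 4, 0, 7 and 0 up-regulated. Clock was 54.6, 47.1 and 52.1 CPM against 94.9, 66 and 68.4 CPM (log2 fold change -0.57 ± 0.13, adjusted p = 0.0182, lost without Lmna-/- replicate 2 or 3 (adjusted p 0.0525 to 0.0545)). Arntl was 4.45, 1.25 and 3.8 CPM in Lmna-/- and 14.3, 2.82 and 7.13 CPM in WT hearts and Per2 was 15.9, 18.3 and 9.47 CPM and 3.12, 9.52 and 6.44 CPM, so both spread widely within a genotype, and the call of Per2 (log2 fold change 1.2 ± 0.3, adjusted p = 0.0261) was lost without Lmna-/- replicate 1 or 2 or WT replicate 1 or 3 (adjusted p 0.0687 to 0.0786). The hour at which hearts were taken is not given in the sources used here.

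**Figure D2:**
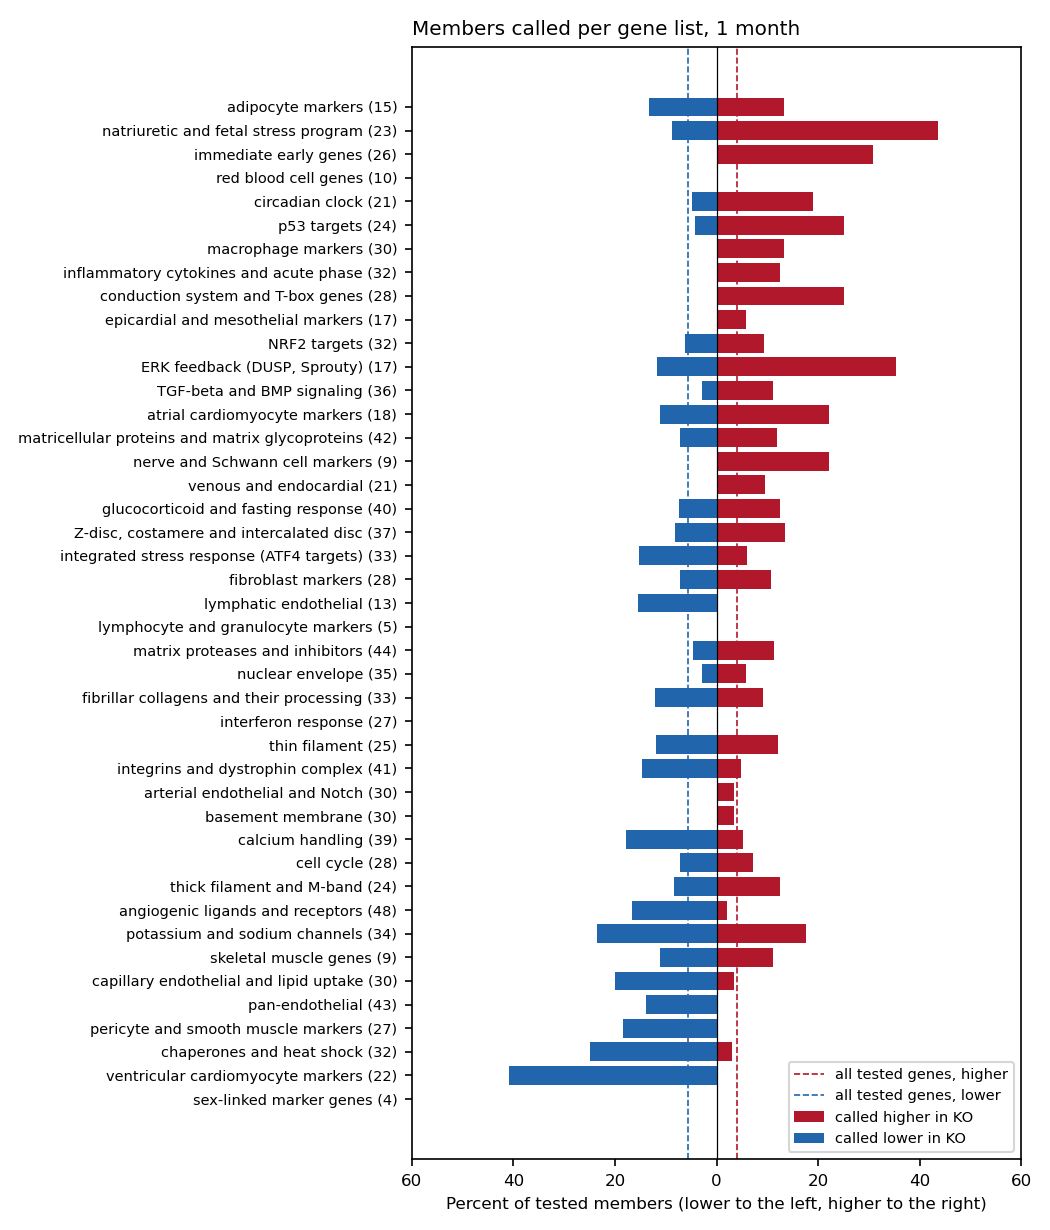
Percent of the tested members of each gene list that were down-regulated (blue, to the left) or up-regulated (red, to the right) in Lmna-/- hearts (KO), with the number tested in brackets and dashed lines at the share of all genes tested (5.72% and 4.03%). The longest red bar is the fetal stress program, with 10 of 23 genes up-regulated, and the longest blue bar the list of ventricular markers, with 9 of 22 down-regulated. The defining genes of that list, Myl2 and Myl3, were not called.

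The main collagen genes were not called, whereas several enzymes that process collagen were. Of 33 tested genes of fibrillar collagens and their processing, 3 were up-regulated and 4 down-regulated, with a median of 0.01, and with library size scaling 6 and 2. The 3 and 4 were 9.09% and 12.1% of the list, beside 4.03% and 5.72% of all genes. The 6 fits that each dropped a heart gave 1, 3, 2, 1, 6 and 1 up-regulated and 3, 3, 3, 4, 3 and 3 down-regulated. Col1a1, the main collagen of scar, was 248, 289 and 287 CPM against 169, 319 and 188 CPM (log2 fold change 0.29 ± 0.19, adjusted p = 0.361), and Col3a1 was 595, 773 and 634 CPM against 582, 965 and 552 CPM (log2 fold change -0.07 ± 0.18, adjusted p = 0.848). WT replicate 2 was the highest of all 6 hearts for both. Lox, the lysyl oxidase that crosslinks collagen and elastin, was 26.6, 17.4 and 16.2 CPM against 9.99, 8.83 and 8.65 CPM (log2 fold change 1.15 ± 0.17, adjusted p = 0.00313). Its log2 fold change in the 18-heart fit was 1.33 ± 0.41, with an adjusted p of 0.065. Loxl4, a related oxidase, had a log2 fold change of 1.26, lost without Lmna-/- replicate 1 or WT replicate 1 or 3 (adjusted p 0.0877 to 0.109).

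The 4 down-regulated members of the collagen list act in the endoplasmic reticulum before secretion. Serpinh1, the collagen chaperone HSP47, was 88.1, 98.6 and 101 CPM against 149, 143 and 128 CPM (log2 fold change -0.55 ± 0.1, adjusted p = 0.0065). P4ha1 and P4ha2, catalytic subunits of prolyl 4-hydroxylase, had 26, 22.1 and 27.1 CPM against 45.3, 34.8 and 35.3 CPM (log2 fold change -0.61 ± 0.12, adjusted p = 0.0105) and 11, 9.22 and 12.5 CPM against 17.4, 16.5 and 16.1 CPM (log2 fold change -0.6 ± 0.12, adjusted p = 0.0113). The genotypes did not overlap for any of the 3, and the call of each held without each heart. The fourth was Plod1, a lysyl hydroxylase, and the 18-heart fit called Serpinh1, P4ha2 and Plod1.

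Of 30 basement membrane genes, all tested, 1 was up-regulated (3.33%, beside 4.03% of all genes) and 0 down-regulated by edgeR, with 3 higher and 3 lower at an unadjusted p under 0.05 and 1 and 0 by DESeq2. The median log2 fold change was -0.07 (0.15 with library size scaling). The 18-heart fit called 0 of them, with 2 higher and 4 lower at an unadjusted p under 0.05. Col4a1, the main collagen of capillary basement membrane, was 448, 518 and 431 CPM against 535, 602 and 506 CPM (log2 fold change -0.23 ± 0.11, adjusted p = 0.188), and Lama2, the laminin chain around cardiomyocytes, was 259, 266 and 215 CPM against 245, 268 and 230 CPM (log2 fold change -0.00 ± 0.11, adjusted p = 0.983). Without each heart in the usual order, 0, 1, 2, 0, 1 and 0 basement membrane genes were up-regulated, and without Lmna-/- replicate 2, 2 were down-regulated.

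Matricellular proteins and glycoproteins had 5 of 42 tested genes up-regulated (11.9%, beside 4.03% of all genes) and 3 down-regulated (7.14%, beside 5.72%), with a median of 0.11. The 18-heart fit called 2 and 2. In the fits without 1 heart there were 4, 4, 5, 2, 7 and 2 up-regulated. Beside Spp1 and Ccn2, Fbn2, the fibrillin of developing microfibrils, was 11.7, 15.8 and 11.6 CPM against 7.08, 6.7 and 6.53 CPM (log2 fold change 0.94 ± 0.15, adjusted p = 0.00383). Vtn, vitronectin, was 7.76, 8.06 and 7.38 CPM against 13.4, 15.2 and 14.3 CPM (log2 fold change -0.89 ± 0.12, adjusted p = 0.00162), and Comp, cartilage oligomeric matrix protein, was 6.61, 5.73 and 4.85 CPM against 10.7, 9.52 and 10.4 CPM (log2 fold change -0.82 ± 0.15, adjusted p = 0.00674, and 0.0766 in the 18-heart fit). Postn, periostin of activated fibroblasts, was 116, 119 and 85.2 CPM against 70.6, 105 and 73.7 CPM and was not called (log2 fold change 0.36 ± 0.16, adjusted p = 0.16), and Fn1, fibronectin, was not called either (log2 fold change 0.14 ± 0.16, adjusted p = 0.61).

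Of 44 tested matrix proteases and inhibitors, 5 were up-regulated (11.4%, beside 4.03% of all genes) and 2 down-regulated (4.55%, beside 5.72%), or 2 and 1 in the 18-heart fit. Leaving out 1 heart at a time gave 3, 5, 2, 3, 7 and 1 up-regulated. Timp1, an inhibitor of metalloproteinases induced in remodelling tissue, was 5.98, 4.21 and 4.62 CPM against 1.56, 1.75 and 1.98 CPM (log2 fold change 1.49 ± 0.21, adjusted p = 0.00253). Mmp14, a membrane-bound metalloproteinase, had a log2 fold change of 0.62, lost without WT replicate 3 (adjusted p 0.0653), and Mmp2, its substrate, was not called (log2 fold change 0.28 ± 0.13, adjusted p = 0.185). Among 36 tested genes of TGF-beta and BMP signalling, 4 were up-regulated (11.1%, beside 4.03% of all genes) and 1 down-regulated (2.78%, beside 5.72%), or 2 and 1 in the 18-heart fit. The up-regulated count was 0, 4, 3, 1, 4 and 0 without each heart. Tgfb2 was 19.9, 14.4 and 15.8 CPM against 9, 12.9 and 10.3 CPM (log2 fold change 0.66 ± 0.15, adjusted p = 0.0195, lost without Lmna-/- replicate 1 or WT replicate 1 or 3 (adjusted p 0.0747 to 0.079)), and Gdf11, a circulating relative of myostatin, had a log2 fold change of -1.11, lost without Lmna-/- replicate 1 or WT replicate 1 or 3 (adjusted p 0.0534 to 0.0767). Tgfb1 did not overlap between genotypes but was not called (log2 fold change 0.44 ± 0.17, adjusted p = 0.112).

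Among 41 tested integrins and genes of the dystrophin complex, 6 were down-regulated (14.6%, beside 5.72% of all genes) and 2 up-regulated (4.88%, beside 4.03%), with a median of -0.04 (0.18 with library size scaling, where all genes had 0.24). The 18-heart fit called 4 and 1, and library size scaling turned the balance to 1 down-regulated and 7 up-regulated. Dropping the hearts one by one gave 6, 6, 4, 3, 5 and 2 down-regulated. Itga1, a collagen receptor subunit, was 44.7, 49.3 and 44.7 CPM against 66, 73 and 61 CPM (log2 fold change -0.53 ± 0.1, adjusted p = 0.00701), and it was called in the 18-heart fit as well. Itga6, a laminin receptor subunit, had a log2 fold change of -0.53, lost without Lmna-/- replicate 1 or WT replicate 1, 2 or 3 (adjusted p 0.0585 to 0.0786). Itga7, the laminin receptor subunit of muscle (log2 fold change -0.04 ± 0.09, adjusted p = 0.796), and Dmd, dystrophin (log2 fold change -0.19 ± 0.1, adjusted p = 0.227), were not called.

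**Figure D3:**
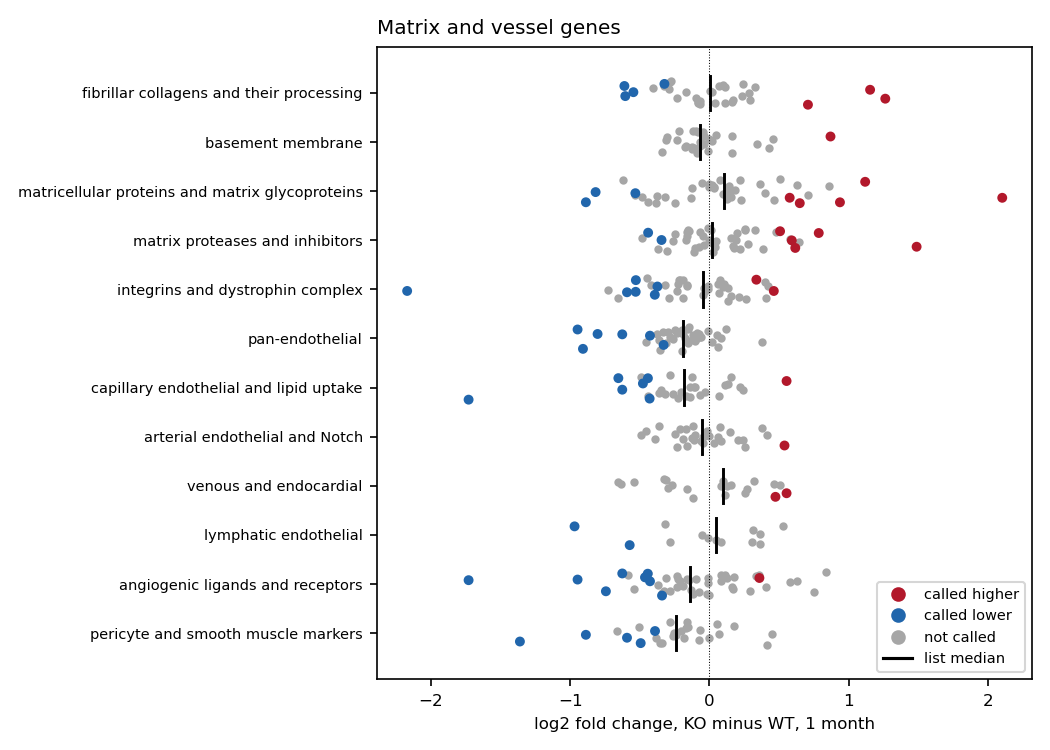
Log2 fold change of Lmna-/- against WT at 1 month (horizontal axis) for every tested gene of the matrix and vessel lists, with 1 point per gene, red for up-regulated, blue for down-regulated, grey for not called, and a black bar at the list median. The bars of the pan-endothelial (-0.19), capillary (-0.18), angiogenic (-0.14) and mural (-0.24) lists lie left of zero, and those of the collagen (0.01) and basement membrane (-0.07) lists close to it. Some genes, such as Kdr, are in more than 1 list and are drawn in each.

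Contractile genes were compared first as ratios of 2 genes within a heart, which do not depend on the scaling of libraries. The log2 ratio of Myh7 to Myh6 counts was -3.31, -6.26 and -5.17 in the Lmna-/- hearts and -9.09, -9.23 and -8.76 in the WT hearts, a difference of 4.11 (3.31 without Lmna-/- replicate 1). Per length, Myh7 made up 7.28%, 1.01% and 2.13% of the reads of both genes in the Lmna-/- hearts and 0.143%, 0.13% and 0.18% in the WT hearts. The 2 genes are neighbours and much alike in sequence, so some reads may be assigned to either. Myh6, the alpha-myosin heavy chain of the adult mouse heart, was 13506, 18325 and 14518 CPM against 17775, 16033 and 18198 CPM and was not called (log2 fold change -0.17 ± 0.14, adjusted p = 0.496).

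The slow skeletal and fetal troponin I gene Tnni1 had only 75, 31 and 38 counts in the Lmna-/- hearts and 8, 2 and 7 in the WT hearts and so failed the count filter, and its log2 ratio to the adult Tnni3 was higher by 3.78 in Lmna-/- hearts. For Nppa to the atrial light chain Myl7 the difference was 1.08, and for Col1a1 to Col3a1 it was 0.37. In these 4 pairs the genotypes did not overlap, and the exact two-sided permutation test gave p = 0.1 for each, the smallest that 3 against 3 hearts allow (adjusted p = 0.2 over 8 pairs). The other 4 pairs overlapped, with differences of 0.12 for Acta1/Actc1 (exact p = 0.7), 0.30 for Tnnt1/Tnnt2 (exact p = 0.2), 0.45 for Myl7/Myl2 (exact p = 0.3) and 0.13 for Pecam1/Cdh5 (exact p = 0.4). The ratio of skeletal to cardiac alpha-actin, a common fetal marker, thus lay within the spread of the hearts, and its difference was -0.12 without Lmna-/- replicate 1 and -0.09 without WT replicate 1.

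**Figure D4:**
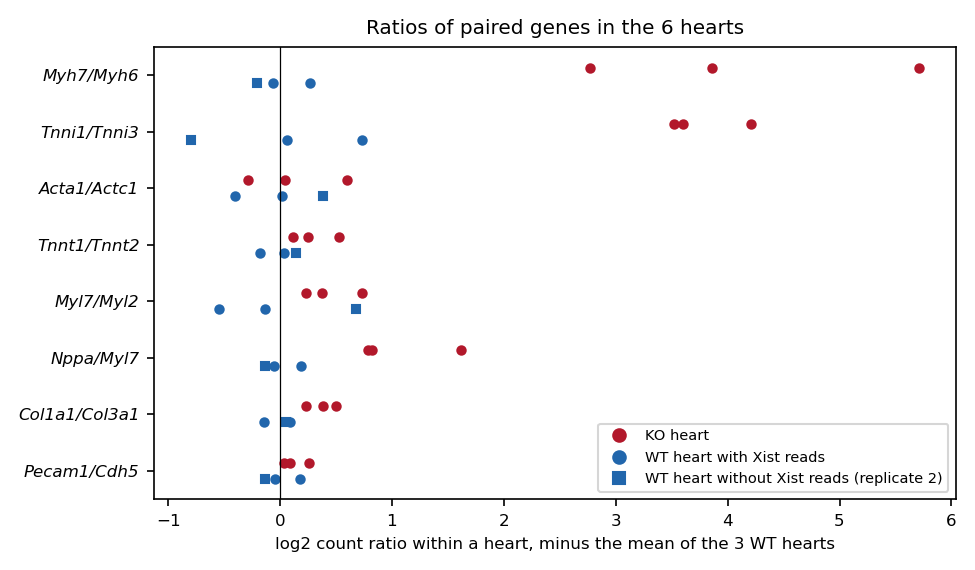
Log2 ratio of the counts of 2 genes in the same heart, minus the mean ratio of the 3 WT hearts, for 8 pairs, with 1 point per heart, red for Lmna-/- (KO), blue for WT and a square for the WT heart without Xist reads (replicate 2). Myh7/Myh6 (difference of means 4.11) and Tnni1/Tnni3 (3.78) stand far to the right in all 3 Lmna-/- hearts, whereas the points for Acta1/Actc1 (0.12) overlap.

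Sarcomere genes were called in both directions. Of 24 tested genes of the thick filament and M-band, 3 were up-regulated and 2 down-regulated, and of 25 tested genes of the thin filament 3 and 3, with medians of -0.12 and -0.04 (0.11 and 0.18 with library size scaling, which called 7 and 1 and 7 and 0). These were 12.5% and 8.33% of the thick and 12% and 12% of the thin filament list, beside 4.03% and 5.72% of all genes. Fits without 1 heart left 2, 3, 2, 2, 2 and 2 up-regulated in the thick filament list and 2, 2, 2, 2, 2 and 0 in the thin filament list, and the 18-heart fit 1 and 0. Of the thin filament list that fit called 1 down-regulated, and 3 were higher at an unadjusted p under 0.05. Myom2, an M-band protein of fast fibres and adult heart, was 1385, 1031 and 1074 CPM against 683, 559 and 704 CPM (log2 fold change 0.84 ± 0.13, adjusted p = 0.00407). Its log2 fold change in the 18-heart fit was 0.93 ± 0.34, with an adjusted p of 0.114. Mylk4, a myosin kinase of the heart, was 25.5, 45 and 32.9 CPM against 54, 72.5 and 102 CPM (log2 fold change -1.16 ± 0.22, adjusted p = 0.0082). Tnni3, cardiac troponin I, was 829, 1031 and 998 CPM against 1454, 1134 and 1318 CPM (log2 fold change -0.45 ± 0.12, adjusted p = 0.0378, lost without Lmna-/- replicate 1 or 3 or WT replicate 1 or 3 (adjusted p 0.0799 to 0.13)). Tnnt1, the slow skeletal troponin T, had a log2 fold change of 0.68, lost without WT replicate 3 (adjusted p 0.0513). Tnnt2, cardiac troponin T, was slightly up-regulated (log2 fold change 0.38 ± 0.11, adjusted p = 0.0488) and was lost without any one of the 6 hearts (adjusted p 0.0731 to 0.182). Tpm4, a nonmuscle tropomyosin, had a log2 fold change of -0.61, lost without WT replicate 1 (adjusted p 0.0583).

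Of 37 tested genes of Z-discs, costameres and intercalated discs, 5 were up-regulated (13.5%, beside 4.03% of all genes) and 3 down-regulated (8.11%, beside 5.72%), of which Lmna itself is 1, or 2 and 2 in the 18-heart fit. Leaving out 1 heart at a time gave 4, 4, 5, 4, 4 and 3 up-regulated. Synm, synemin, an intermediate filament protein that links desmin to costameres, was 28.9, 18.4 and 18.7 CPM against 11.7, 11.7 and 11.6 CPM (log2 fold change 0.94 ± 0.16, adjusted p = 0.00583). Des, desmin (log2 fold change 0.41 ± 0.13, adjusted p = 0.0565), and Actn2, cardiac alpha-actinin (log2 fold change 0.26 ± 0.11, adjusted p = 0.133), were each higher in all 3 Lmna-/- hearts than in any WT heart and missed the threshold. The library size scaling called 18 of this list up-regulated.

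Calcium handling had 7 of 39 tested genes down-regulated (17.9%, beside 5.72% of all genes) and 2 up-regulated (5.13%, beside 4.03%). The median was -0.08 (0.14 with library size scaling, where all genes had 0.24), and that scaling turned the balance to 2 and 8. Leaving out 1 heart at a time gave 4, 5, 2, 2, 8 and 2 down-regulated, and the 18-heart fit 4. Hrc, the histidine-rich calcium-binding protein of the sarcoplasmic reticulum, was 208, 264 and 232 CPM against 490, 390 and 461 CPM (log2 fold change -0.93 ± 0.12, adjusted p = 0.00116), and held without each heart and in the 18-heart fit. Atp2a2, the calcium pump SERCA2 that refills the reticulum, was 4616, 5743 and 5325 CPM against 8469, 7168 and 8048 CPM (log2 fold change -0.59 ± 0.13, adjusted p = 0.0134, lost without Lmna-/- replicate 3 or WT replicate 1 or 3 (adjusted p 0.0517 to 0.0678)). Ryr2, the release channel, was 2098, 2361 and 2120 CPM against 3083, 2815 and 3174 CPM (log2 fold change -0.46 ± 0.11, adjusted p = 0.0203, lost without Lmna-/- replicate 1 or 3 or WT replicate 1 or 3 (adjusted p 0.0592 to 0.104)). The 18-heart fit gave adjusted p values of 0.096 for Atp2a2 (log2 fold change -0.61 ± 0.21) and 0.161 for Ryr2 (log2 fold change -0.5 ± 0.2). Cacna2d1, an auxiliary subunit of the L-type channel, had a log2 fold change of -0.57, lost without WT replicate 1 (adjusted p 0.054). Cacna1g, a T-type channel of pacemaker and fetal cardiomyocytes, was 27.6, 22.3 and 25.3 CPM against 16.6, 19.9 and 16 CPM (log2 fold change 0.53 ± 0.12, adjusted p = 0.016, lost without Lmna-/- replicate 1 or WT replicate 1 or 3 (adjusted p 0.0537 to 0.0795)).

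Potassium and sodium channels moved in both directions. Of 34 tested genes 8 were down-regulated and 6 up-regulated, beside 5.72% and 4.03% of all genes, the 18-heart fit called 5 and 3, and library size scaling 3 and 11. With each heart left out in turn there were 5, 7, 4, 7, 7 and 5 down-regulated and 3, 2, 2, 3, 4 and 2 up-regulated. Kcnd2, a pore subunit of the fast transient outward current of the mouse ventricle, was 13, 18.8 and 18 CPM against 30.0, 29.2 and 33.8 CPM (log2 fold change -0.92 ± 0.13, adjusted p = 0.00256). Its auxiliary subunit Kcnip2 had a log2 fold change of -0.51, lost without WT replicate 3 (adjusted p 0.0786), and Kcna5, of the ultrarapid current, had -0.63, lost without Lmna-/- replicate 1 or 3 or WT replicate 3 (adjusted p 0.0568 to 0.125). Scn4a, the skeletal muscle sodium channel, was 7.56, 10.8 and 8.87 CPM against 12.7, 22.4 and 23.1 CPM (log2 fold change -1.12 ± 0.21, adjusted p = 0.00751). Scn4b, a sodium channel beta subunit, was 2.78, 2.42 and 2.09 CPM against 2.48, 6.55 and 6.12 CPM, with WT replicate 1 inside the range of the Lmna-/- hearts (log2 fold change -1.05 ± 0.31, adjusted p = 0.0488, lost without Lmna-/- replicate 1, 2 or 3 or WT replicate 2 or 3 (adjusted p 0.0795 to 0.179)). Kcnj2, of the inward rectifier current, was not called (log2 fold change -0.33 ± 0.11, adjusted p = 0.0681).

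Of 28 tested genes of the conduction system and of T-box factors, 7 were up-regulated (25%, beside 4.03% of all genes) and 0 down-regulated by edgeR (10 higher and 1 lower at an unadjusted p under 0.05, and 7 and 0 by DESeq2), with a median of 0.22. The 6 fits that each dropped a heart gave 3, 5, 8, 3, 6 and 2 up-regulated, and the 18-heart fit gave 5. Irx3, a homeobox factor of the Purkinje network, was 18, 15 and 13.8 CPM against 9.63, 9.29 and 7.59 CPM (log2 fold change 0.84 ± 0.14, adjusted p = 0.00472). Cntn2, a contactin that marks conduction cells, was 13.3, 12.3 and 14.5 CPM against 7.72, 9.98 and 7.68 CPM (log2 fold change 0.67 ± 0.13, adjusted p = 0.0111, lost without WT replicate 3 (adjusted p 0.0611)). Hcn4, the main channel of the sinus node (log2 fold change -0.19 ± 0.17, adjusted p = 0.519), and Gja5, connexin 40 of atria and Purkinje fibres (log2 fold change 0.08 ± 0.15, adjusted p = 0.779), are the best-known markers of this tissue and were not called. How much conduction tissue each heart held was not tested.

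The list of ventricular cardiomyocyte markers also holds genes of muscle metabolism, such as Ckm, Mb and Cox7a1, and of calcium handling, such as Hrc. It had 9 of 22 genes down-regulated (40.9%, beside 5.72% of all genes) and 0 up-regulated by edgeR (1 higher and 12 lower at an unadjusted p under 0.05, and 0 and 11 by DESeq2), with a median of -0.34 (-0.11 with library size scaling). In the fits without 1 heart there were 6, 7, 5, 4, 12 and 3 down-regulated, and the 18-heart fit 5 down-regulated and 0 up-regulated, with 9 lower and 0 higher at an unadjusted p under 0.05. Among those that fell, Cox7a1, the heart and muscle form of a cytochrome oxidase subunit, was 97.3, 111 and 110 CPM against 206, 171 and 198 CPM (log2 fold change -0.85 ± 0.1, adjusted p = 0.000977). Fabp3, the fatty acid carrier of heart, was 325, 377 and 299 CPM against 564, 542 and 537 CPM (log2 fold change -0.72 ± 0.1, adjusted p = 0.00256). Ckm, muscle creatine kinase, was 206, 339 and 258 CPM against 417, 385 and 434 CPM (log2 fold change -0.62 ± 0.15, adjusted p = 0.0213, lost without Lmna-/- replicate 3 or WT replicate 1 or 3 (adjusted p 0.0631 to 0.0784)), and Mb, myoglobin, 2095, 2290 and 2059 CPM against 3229, 2461 and 3204 CPM (log2 fold change -0.46 ± 0.12, adjusted p = 0.0364, lost without Lmna-/- replicate 1, 2 or 3 or WT replicate 1 or 3 (adjusted p 0.051 to 0.157)). The 2 defining markers of the list, the ventricular light chains Myl2 (log2 fold change -0.29 ± 0.14, adjusted p = 0.199) and Myl3 (log2 fold change -0.09 ± 0.12, adjusted p = 0.666), overlapped between genotypes and were not called. The summed level of the list was 58190 to 69420 CPM in Lmna-/- and 66570 to 76620 CPM in WT hearts.

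Most endothelial genes lay slightly lower in the Lmna-/- hearts relative to the typical gene. Of 43 tested pan-endothelial genes, 6 were down-regulated (14%, beside 5.72% of all genes) and 0 up-regulated by edgeR (0 higher and 15 lower at an unadjusted p under 0.05, and 0 and 7 by DESeq2). Of the 43, 37 had a negative log2 fold change, with a median of -0.19 beside 0.02 for all genes, and with library size scaling the median of the list was 0.03 beside 0.24. Dropping the hearts one by one gave 3, 6, 3, 6, 4 and 4 down-regulated, and the 18-heart fit 4 down-regulated and 0 up-regulated. Summed over the list, the level was 1511 to 1550 CPM in Lmna-/- and 1748 to 1846 CPM in WT hearts, which did not overlap. In whole hearts, fewer endothelial cells and less of these transcripts per cell cannot be told apart, and the same holds for every other cell type below.

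Kdr, the main VEGF receptor of endothelium, was 95.7, 132 and 122 CPM against 189, 160 and 189 CPM (log2 fold change -0.63 ± 0.12, adjusted p = 0.00908). Aplnr, the apelin receptor of growing veins and capillaries, was 12.3, 23 and 22.9 CPM against 31.5, 43.4 and 35.5 CPM (log2 fold change -0.95 ± 0.2, adjusted p = 0.013), and Pcdh12, an endothelial protocadherin, 10.1, 16.7 and 11.9 CPM against 24.9, 24.6 and 21.9 CPM (log2 fold change -0.91 ± 0.15, adjusted p = 0.00512). These 3 genes held without each heart and in the 18-heart fit, and in all of them Lmna-/- replicate 1 was the lowest heart. Icam2, an adhesion molecule, had a log2 fold change of -0.8, lost without Lmna-/- replicate 1 or 3 or WT replicate 2 or 3 (adjusted p 0.0599 to 0.104), and Adgrl4, an endothelial adhesion receptor, had -0.43, lost without Lmna-/- replicate 1, 2 or 3 or WT replicate 1 (adjusted p 0.0621 to 0.125). Of the 2 defining markers, Cdh5, VE-cadherin, was 114, 117 and 111 CPM against 136, 158 and 135 CPM (log2 fold change -0.33 ± 0.09, adjusted p = 0.044) and was lost without any one of the 6 hearts (adjusted p 0.0618 to 0.124). Pecam1, CD31, was 98.9, 89.7 and 82.1 CPM against 112, 104 and 94.5 CPM and was not called (log2 fold change -0.19 ± 0.1, adjusted p = 0.237).

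Among 30 tested genes of capillary endothelium and lipid uptake, 6 were down-regulated and 1 up-regulated (2 and 3 with library size scaling), with a median of -0.18 (0.03 with that scaling). The 6 were 20% of the list, beside 5.72% of all genes, and the up-regulated share was 3.33%, beside 4.03%. Leaving out 1 heart at a time gave 3, 7, 3, 2, 4 and 4 down-regulated, and the 18-heart fit 5. Apln, apelin, the ligand of Aplnr and a marker of sprouting tip cells, was 1.34, 5.55 and 3.21 CPM against 9.56, 9.82 and 11.4 CPM (log2 fold change -1.73 ± 0.32, adjusted p = 0.00766). Ligand and receptor of the apelin pathway were thus both lower in all 3 Lmna-/- hearts than in any WT heart. Cav1, the coat protein of caveolae, had a log2 fold change of -0.44, lost without Lmna-/- replicate 1 or 3 or WT replicate 1 (adjusted p 0.0512 to 0.0613). Gpihbp1, which carries lipoprotein lipase to the capillary lumen (log2 fold change -0.11 ± 0.14, adjusted p = 0.663), and Cd36, a fatty acid translocase (log2 fold change -0.35 ± 0.14, adjusted p = 0.146), the 2 defining genes, were not called. Plvap, a protein of fenestrated and injured endothelium, was 7.8, 7.88 and 8.95 CPM against 5.24, 6.4 and 5.2 CPM (log2 fold change 0.55 ± 0.15, adjusted p = 0.034, lost without Lmna-/- replicate 1, 2 or 3 or WT replicate 1 or 3 (adjusted p 0.0566 to 0.138)).

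Arterial, venous and lymphatic lists had 2 or fewer calls in either direction. The up-regulated share was 3.33% of the arterial and 9.52% of the venous list, beside 4.03% of all genes. Down-regulated genes made up 15.4% of the lymphatic list, beside 5.72% of all genes. Of 30 arterial and Notch genes 1 was up-regulated and 0 down-regulated by edgeR (1 higher and 5 lower at an unadjusted p under 0.05, and 1 and 0 by DESeq2), with the defining genes Hey1 (log2 fold change -0.39 ± 0.16, adjusted p = 0.132) and Gja4 (log2 fold change -0.11 ± 0.23, adjusted p = 0.803) not called. Of 21 tested venous and endocardial genes 2 were up-regulated and 0 down-regulated by edgeR (5 higher and 5 lower at an unadjusted p under 0.05, and 1 and 0 by DESeq2). Those were Plvap and Npr3, the natriuretic peptide clearance receptor of endocardium, at 70.9, 59.9 and 54.6 CPM against 41.9, 52.1 and 40.0 CPM (log2 fold change 0.47 ± 0.12, adjusted p = 0.0303, lost without Lmna-/- replicate 1 or 2 or WT replicate 1 or 3 (adjusted p 0.0513 to 0.123)), and the venous factor Nr2f2 was not called (log2 fold change 0.32 ± 0.15, adjusted p = 0.192). The 18-heart fit called 0 genes up-regulated and 1 down-regulated in each of these lists, with 1 higher and 4 lower in the arterial and 4 higher and 5 lower in the venous list at an unadjusted p under 0.05. Of 13 tested lymphatic genes 2 were down-regulated and 0 up-regulated by edgeR (2 higher and 4 lower at an unadjusted p under 0.05, and 0 and 2 by DESeq2), and the 18-heart fit called 0, with 2 higher and 3 lower at an unadjusted p under 0.05. Lyve1, a hyaluronan receptor of lymphatics and resident macrophages, was 9.14, 9.4 and 7.83 CPM against 13.1, 14.2 and 12.1 CPM (log2 fold change -0.57 ± 0.12, adjusted p = 0.0153, lost without Lmna-/- replicate 3 (adjusted p 0.0564)), and Prox1, the lymphatic master factor that cardiomyocytes also express, was not called (log2 fold change -0.01 ± 0.09, adjusted p = 0.954). Without each heart in the usual order the up-regulated counts were 0, 1, 0, 0, 0 and 0 in the arterial list and 0, 0, 2, 0, 3 and 0 in the venous list.

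Of 48 tested angiogenic ligands, receptors and oxygen sensors, 8 were down-regulated and 1 up-regulated (4 and 5 with library size scaling), with a median of -0.14 (0.09 with that scaling). The 8 were 16.7% of the list, beside 5.72% of all genes, and the up-regulated share was 2.08%, beside 4.03%. With each heart left out in turn there were 4, 8, 5, 3, 7 and 3 down-regulated, and the 18-heart fit 6. Kdr, Aplnr and Apln were among the 8 and had been counted above. Kdr is also in the pan-endothelial and capillary lists, Aplnr in the pan-endothelial and Apln in the capillary list. The counts of these lists are therefore not independent. Vegfa, the main angiogenic factor, was 46.6, 69.3 and 66.3 CPM against 83.7, 76.2 and 89.8 CPM (log2 fold change -0.46 ± 0.13, adjusted p = 0.0474, lost without Lmna-/- replicate 1 or 3 or WT replicate 1 or 3 (adjusted p 0.0656 to 0.158)), and Vegfb, its relative in oxidative muscle, had a log2 fold change of -0.34, lost without Lmna-/- replicate 1 or 3 or WT replicate 1 or 3 (adjusted p 0.0682 to 0.163). Egln1 and Egln3 encode the oxygen-sensing hydroxylases that mark HIF for degradation. Egln3, itself induced by hypoxia, was 24.5, 20.1 and 27.6 CPM against 44.6, 30.3 and 45.7 CPM (log2 fold change -0.74 ± 0.15, adjusted p = 0.0126, lost without WT replicate 1 or 3 (adjusted p 0.0526 to 0.0586)), and Egln1 had a log2 fold change of -0.44, lost without Lmna-/- replicate 1 or 2 or WT replicate 1 or 3 (adjusted p 0.0614 to 0.0978). Hif1a, the regulated subunit of the hypoxia factor, was the up-regulated member at 92.6, 83.7 and 76.5 CPM against 67.2, 68.7 and 61.6 CPM (log2 fold change 0.36 ± 0.1, adjusted p = 0.0354, lost without Lmna-/- replicate 1 or 2 or WT replicate 1 or 3 (adjusted p 0.0727 to 0.146)).

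Markers of the mural cells that wrap vessels gave a like picture relative to the typical gene. Of 27 tested genes of pericytes and smooth muscle, 5 were down-regulated (18.5%, beside 5.72% of all genes) and 0 up-regulated by edgeR (1 higher and 12 lower at an unadjusted p under 0.05, and 1 and 7 by DESeq2), with a median of -0.24 (-0.02 with library size scaling). The 6 fits that each dropped a heart gave 5, 5, 3, 4, 5 and 4 down-regulated, and the 18-heart fit 3 down-regulated and 0 up-regulated, with 7 lower and 1 higher at an unadjusted p under 0.05. Higd1b, a gene restricted to pericytes, was 0.957, 1.34 and 0.969 CPM against 2.41, 2.74 and 3.04 CPM (log2 fold change -1.36 ± 0.25, adjusted p = 0.00788). The 2 defining markers, Rgs5 (log2 fold change -0.36 ± 0.12, adjusted p = 0.0837) of pericytes and Myh11 (log2 fold change -0.24 ± 0.12, adjusted p = 0.221) of smooth muscle, were not called, although all 3 Lmna-/- hearts were below the WT hearts for Rgs5. The summed level of the list was 4345 to 4799 CPM in Lmna-/- and 4865 to 5934 CPM in WT hearts.

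Among other cell types, macrophage markers had 4 of 30 tested genes up-regulated (13.3%, beside 4.03% of all genes) and 0 down-regulated by edgeR (13 higher and 3 lower at an unadjusted p under 0.05, and 4 and 0 by DESeq2), with a median of 0.30. In the fits without 1 heart there were 1, 3, 3, 2, 7 and 1 up-regulated, and the 18-heart fit gave 1. Ccr2, the chemokine receptor of monocyte-derived macrophages, was 5.36, 5.28 and 5.44 CPM against 2.13, 2.36 and 1.38 CPM (log2 fold change 1.5 ± 0.22, adjusted p = 0.00253). Its log2 fold change in the 18-heart fit was 1.47 ± 0.45, with an adjusted p of 0.0629. Cybb, the phagocyte oxidase subunit, had a log2 fold change of 0.56, lost without Lmna-/- replicate 1 or WT replicate 3 (adjusted p 0.0554 to 0.0786), and Lyz2, lysozyme, had 0.44, lost without Lmna-/- replicate 1 or 2 or WT replicate 1, 2 or 3 (adjusted p 0.052 to 0.163). The defining genes Csf1r (log2 fold change 0.25 ± 0.12, adjusted p = 0.189) and Adgre1 (log2 fold change 0.24 ± 0.16, adjusted p = 0.356) overlapped between genotypes. Summed macrophage markers were 428.3 to 539.1 CPM in Lmna-/- and 378.1 to 457.9 CPM in WT hearts, which overlapped.

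Fibroblast markers had 3 of 28 genes up-regulated (10.7%, beside 4.03% of all genes, and 1 gene with robust estimation) and 2 down-regulated (7.14%, beside 5.72%), and the 18-heart fit of edgeR called 0 (1 higher and 4 lower at an unadjusted p under 0.05). The defining genes Pdgfra (log2 fold change 0.29 ± 0.13, adjusted p = 0.172) and Tcf21 (log2 fold change -0.04 ± 0.17, adjusted p = 0.912) were not called. The list summed to 2763 to 3428 CPM in Lmna-/- and 2565 to 3059 CPM in WT hearts. Atrial markers had 4 of 18 tested genes up-regulated and 2 down-regulated, or 1 and 0 by edgeR in the 18-heart fit (3 higher and 1 lower there at an unadjusted p under 0.05), and their defining genes Sln (log2 fold change -0.02 ± 0.17, adjusted p = 0.965) and Myl7 (log2 fold change 0.13 ± 0.17, adjusted p = 0.67) overlapped at 222, 193 and 190 CPM against 189, 237 and 128 CPM for Myl7. Atrial tissue in the heart as taken, of which Nppa is also a marker, summed to 2123 to 2923 CPM in Lmna-/- and 1664 to 2292 CPM in WT hearts, and its part in the Nppa difference was not tested beyond the ratio of Nppa to Myl7 above. Adipocyte markers had 2 of 15 tested genes up-regulated and 2 down-regulated, or 0 and 2 by edgeR in the 18-heart fit (2 higher and 3 lower there at an unadjusted p under 0.05), and Adipoq, adiponectin, was 5.22, 1.25 and 8.87 CPM in Lmna-/- and 0.708, 2.36 and 1.43 CPM in WT hearts (log2 fold change 1.81 ± 0.52, adjusted p = 0.0454, lost without Lmna-/- replicate 1 or 3 or WT replicate 1 or 3 (adjusted p 0.0853 to 0.166)). Red blood cell genes were not called in any of 10 tested by edgeR or DESeq2 (2 higher and 0 lower at an unadjusted p under 0.05). Their summed level was 410.3 to 958.3 CPM in Lmna-/- and 427.8 to 478.4 CPM in WT hearts, and 3 were up-regulated without Lmna-/- replicate 1.

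Interferon response genes, which cells induce on sensing viral or misplaced nucleic acid, had 0 of 27 tested genes called by edgeR or DESeq2, with 1 higher and 2 lower at an unadjusted p under 0.05 and a median of -0.01. Isg15 was 1.58, 1.07 and 1.49 CPM against 1.2, 1.29 and 1.75 CPM (log2 fold change -0.04 ± 0.28, adjusted p = 0.951). Inflammatory and acute-phase genes had 4 of 32 tested genes up-regulated (12.5%, beside 4.03% of all genes) and 0 down-regulated by edgeR (10 higher and 2 lower at an unadjusted p under 0.05, and 3 and 0 by DESeq2), among them Serpina3n. Dropping the hearts one by one gave 1, 5, 2, 1, 4 and 1, robust estimation 2, and the 18-heart fit 1. Of 35 nuclear envelope genes, 2 were up-regulated (5.71%, beside 4.03% of all genes) and 1, Lmna, down-regulated (2.86%, beside 5.72%), so these shares lay near those of all genes, and the 18-heart fit called 1 and 1. Tmem43, an inner membrane protein that binds lamins, was 24.2, 16.9 and 21 CPM against 12.1, 13.5 and 14.1 CPM (log2 fold change 0.65 ± 0.13, adjusted p = 0.0111, lost without WT replicate 1 (adjusted p 0.0517)). Tmpo, the lamin-binding LAP2, had a log2 fold change of 0.38, lost without Lmna-/- replicate 1 or 2 or WT replicate 1, 2 or 3 (adjusted p 0.0926 to 0.146), and Emd, emerin, was not called (log2 fold change 0.22 ± 0.13, adjusted p = 0.31). Cell cycle genes had 2 of 28 tested up-regulated and 2 down-regulated (1 and 1 in the 18-heart fit), with Top2a, a topoisomerase of dividing cells, at 1.72, 4.39 and 2.91 CPM against 4.53, 9.75 and 6.35 CPM (log2 fold change -1.26 ± 0.32, adjusted p = 0.0287, lost without Lmna-/- replicate 1 or 3 or WT replicate 2 or 3 (adjusted p 0.0662 to 0.0966)) and Mki67 at 3.3, 15.6 and 5.59 CPM against 7.72, 20.4 and 12.8 CPM, which was not called (log2 fold change -0.83 ± 0.44, adjusted p = 0.257).

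Of the remaining lists, skeletal muscle genes had 1 of 9 tested up-regulated and 1 down-regulated (11.1% each, beside 4.03% and 5.72% of all genes). Epicardial markers had 1 of 17 up-regulated (5.88%, beside 4.03%). Nerve and Schwann cell markers had 2 of 9 up-regulated, Ncam1 and Uchl1, which are also members of the fetal list. None of 5 tested lymphocyte and granulocyte markers was called by edgeR or DESeq2 (1 higher and 1 lower at an unadjusted p under 0.05). The list of Xist, Y-linked and X-escape genes had 0 of 4 tested genes called by either tool (0 higher and 3 lower at an unadjusted p under 0.05). The count filter removed 6 of its 10 genes. Xist and Ddx3y, which differed widely between hearts, could not pass it, so calls in this list, also in the 18-heart fit, do not cover them. The 18-heart fit called 1 up-regulated and 1 down-regulated skeletal muscle gene and 2 up-regulated nerve genes. By edgeR in that fit, 0 genes were called in the red blood cell, interferon, epicardial, lymphocyte and sex-linked lists, each with at most 1 higher and 2 lower at an unadjusted p under 0.05. Over the 43 lists together, 189 of 1020 different tested genes were DEGs, and the 18-heart fit called 101 of them. Without Lmna-/- replicates 1, 2 and 3 there were 110, 175 and 124, and without WT replicates 1, 2 and 3 there were 97, 195 and 75. The lists hold genes picked for the heart and for stress, so their share is a description and is not compared with that of all genes. Of the 106 DEGs followed singly, the 18-heart fit did not call 35 (adjusted p 0.0515 to 0.491), namely Adgrl4, Adipoq, Atp2a2, Ccn2, Ccr2, Cdh5, Comp, Dusp5, Dusp8, Egr1, Egr2, Fhl1, Gm28437, Junb, Kcna5, Kcnip2, Lox, Loxl4, Lyve1, Lyz2, Mb, Mthfd1l, Myom2, Nppa, Npr3, P4ha1, Plvap, Ryr2, Tmpo, Tnni3, Tnnt1, Tnnt2, Top2a, Vegfa and Vegfb.

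The 1-month difference was then set against that of the 6 hearts of 2-week-old mice, which were other animals, to see what was particular to the later age. At 2 weeks 516 of 13143 genes were up-regulated (3.93%) and 474 down-regulated (3.61%). Of the 1249 DEGs of 1 month, 96 were also DEGs in the same direction at 2 weeks and 34 in the opposite direction. The genotype effect itself differed between the ages for 911 of 12333 genes (7.39%), 325 with a more positive log2 fold change at 1 month and 586 with a more negative one, and 462 of the 911 were 1-month DEGs. The count was 563 with an Xist term, and 376, 553, 502, 595 and 494 without WT replicate 2, WT replicate 3 or Lmna-/- replicate 1 of 2 weeks, or WT replicate 1 or 3 of 1 month.

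Of the 146 named genes that could be tested for this difference, 52 differed. Most were named for a call at 1 month, and the test uses the same 1-month hearts. Their share is thus a description and cannot be set against the 7.39% of all genes. Myh7 had a log2 fold change of 0.81 at 2 weeks and 4.3 at 1 month (difference 3.48 ± 0.62, adjusted p = 0.00405). Hrc had 0.17 at 2 weeks and -0.93 at 1 month (difference -1.11 ± 0.16, adjusted p = 0.00122), and Fkbp4 0.04 and -0.88 (difference -0.92 ± 0.16, adjusted p = 0.00397). Serpinh1 went from 0.15 to -0.55 (difference -0.7 ± 0.15, adjusted p = 0.00925), and P4ha2 from 0.32 to -0.6 (difference -0.93 ± 0.17, adjusted p = 0.0052), and neither of these collagen-processing genes was called at 2 weeks. Tnni3 was called in opposite directions at the 2 ages, with 0.33 and -0.45 (difference -0.79 ± 0.16, adjusted p = 0.00811). For Aplnr (-1.02 and -0.95, adjusted p of the difference 0.907), Ccn2 (1.34 and 1.12, 0.754) and Lmna (-1.41 and -1.73, 0.304) the difference between ages was not called.

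As groups, chaperones had 6 up-regulated and 0 down-regulated genes at 2 weeks beside 1 and 8 at 1 month, and 7 of 31 differed between the ages. Of the 26 immediate early genes tested at 1 month, 17 were up-regulated at 2 weeks and 8 at 1 month. Of the 40 glucocorticoid and fasting genes tested at 1 month, these counts were 17 and 5. Cell cycle genes had 22 down-regulated at 2 weeks and 2 at 1 month, and 12 of 28 differed between the ages. Ventricular markers had 3 down-regulated at 2 weeks and 9 at 1 month, with 8 of 22 differing. Of all genes, 3.93% were up-regulated and 3.61% down-regulated at 2 weeks, beside 4.03% and 5.72% at 1 month, and 7.39% differed between the ages.

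**Figure D5:**
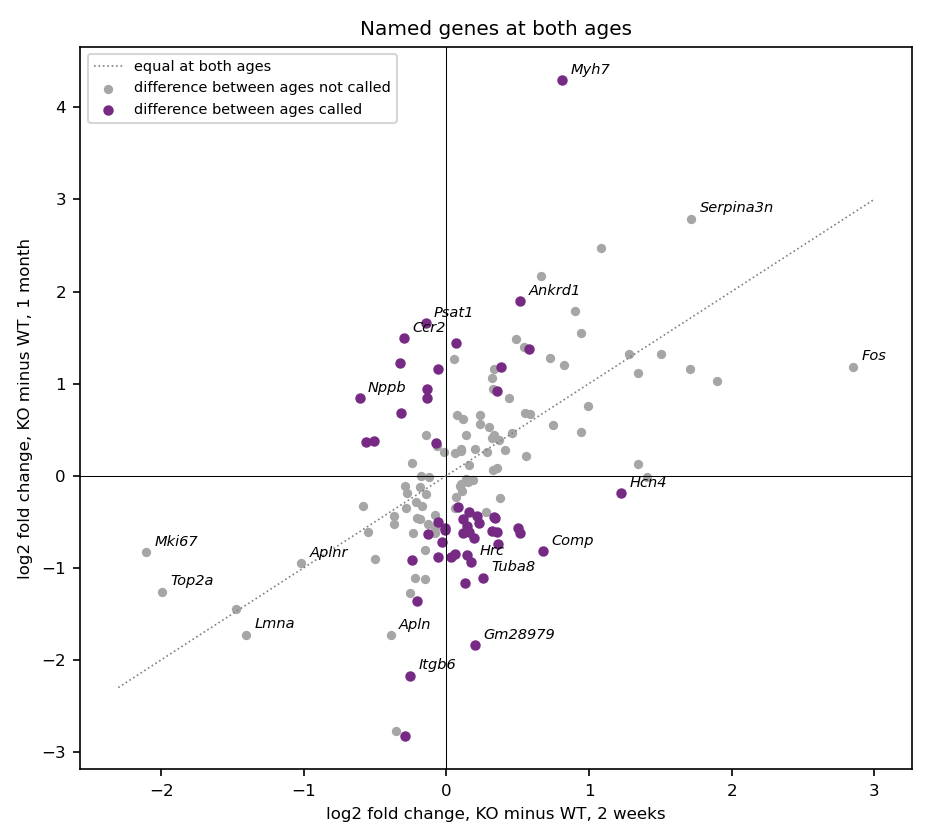
Log2 fold change of Lmna-/- against WT (KO minus WT) at 2 weeks (horizontal axis) and at 1 month (vertical axis), with 1 point per named gene, purple where the difference between the ages was called, and a dotted line where both are equal. Myh7 lies highest, with 0.81 at 2 weeks and 4.30 at 1 month, and Itgb6 and Gm28979 lie far below the line.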

How the data were processed

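Total RNA of whole hearts, 3 per genotype and age (18 hearts), was sequenced from stranded, ribosome-depleted libraries. Per the labels, the authors aligned reads to mm10 with STAR 2.3.1d, and their methods name another STAR version. They counted reads that overlap the exons of a collapsed gene model, left out ambiguous ones, and deposited raw counts per gene in 1 table per age, which were also the input of their DESeq2 test. The strand setting and the annotation are not given in the sources used here. Of the 47069 identifiers, 98.9% matched GENCODE M21, from which symbols and positions were taken. RNA of both strands may be mixed where genes overlap.

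From the deposited counts, genes above 5 counts in all 6 hearts were tested with the quasi-likelihood F-test of edgeR 4.0.16 in R 4.3.3 (TMM scaling, genotype as the only term, Benjamini-Hochberg over 12815 genes, threshold 0.05), and adjusted p values in the text are from this test. CPM were TMM-scaled, and depth was 10673094 to 24049579 counts. The standard error was the log2 fold change divided by the square root of F. The 18-heart fit held 6 groups and 1 term for Xist above 5 CPM. The difference between ages was the interaction term over 12 hearts. Ratios within a heart were compared by an exact two-sided permutation test. The edgeR test was tried on simulated counts of 12815 genes, 200 of them changed. It recovered 39.4% of changes of 0.5 in log2, 88.1% of those of 1 and 98.5% of those of 2, and 14 of its 165 calls were false. A gene that was not called may thus still differ by a small amount. Alternatives were DESeq2 1.42.0, its size factors, library size scaling, other filters, robust estimation, a replicate block, GC correction, Xist terms and each heart left out. Fits with 1 WT heart were chosen after seeing the data.

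Replicates are separate hearts per the methods. The labels do not give sex. The gene lists were written from general knowledge, and these lists, the comparison and its tests were chosen with earlier results of these data known, so list counts are a description. Named were Lmna, the 5 largest rises and falls above 1 CPM without overlap, up to 6 called and 2 defining genes per list, the genes of the ratios and called genes near Lmna. Tuba8, Dnaja1, Hspa8, Ccng1, Kcnd2, Mb, Vegfb, Hif1a and genes that failed the filter were added after their values were seen. Some genes that this rule names are not reported here. The 1-week hearts entered only the 18-heart fit.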

Additional observations from a re-analysis of the deposited data

Results flagged for a closer look

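For 52 of the 146 named genes tested for it, the difference between Lmna-/- and WT hearts at 1 month differed from that at 2 weeks in the interaction test of edgeR (adjusted p under 0.05). The values in brackets are the log2 fold change at 1 month minus that at 2 weeks, so that a positive value means a more positive difference at the later age. Many of these genes were named for their call at 1 month, which favours a difference in the direction of that call.

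Among fetal and load-responsive genes these were Myh7 (3.48), Nppb (1.45), Ankrd1 (1.38), Uchl1 (1.38), Ncam1 (1.22), Fhl1 (0.79) and Tuba8 (-1.37). Nppb was not called at 1 month and was lower in Lmna-/- hearts at 2 weeks. The chaperones in this set were Fkbp4 (-0.92), Hspa8 (-0.56), Hspd1 (-0.50) and Dnaja1 (-0.45). Each was named as a down-regulated DEG of 1 month, so a negative value was favoured by the choice. Other stress genes were Psat1 (1.80), Mthfd1l (1.55), Hmox1 (0.79) and Perp (0.55) on the positive side and Gpt2 (-0.88), Dusp8 (-0.98) and Plin5 (-1.01) on the negative side. Of the strongest down-regulated genes, 2210407C18Rik (-2.54), Gm28979 (-2.04) and Itgb6 (-1.93) were among them.

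Matrix genes of this set were Fbn2 (1.07) and Postn (0.92) on the positive side and Comp (-1.50), P4ha2 (-0.93), Vtn (-0.84), P4ha1 (-0.77) and Serpinh1 (-0.70) on the negative side. Of the contractile genes, Tnnt1 (0.99) was positive, and Mylk4 (-1.30) and Tnni3 (-0.79) were negative. In calcium handling and among ion channels Hcn4 (-1.42), Kcna5 (-1.15), Hrc (-1.11), Kcnip2 (-0.75), Kcnd2 (-0.69), Atp2a2 (-0.59) and Cacna2d1 (-0.57) were negative, and Irx3 (0.97) of the conduction list was positive. Hcn4 was up-regulated at 2 weeks and not called at 1 month. Genes of the ventricular list were Cox7a1 (-0.92), Ckm (-0.74), Fabp3 (-0.69) and Mb (-0.59). These too were named as down-regulated DEGs of 1 month, which favoured a negative value.

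Endothelial, angiogenic and mural genes of this set were Higd1b (-1.16), Egln3 (-1.11), Lyve1 (-1.08), Vegfa (-0.81), Egln1 (-0.66) and Vegfb (-0.43) on the negative side and Hif1a (0.43) on the positive side. The set also held Ccr2 (1.79) of monocyte-derived macrophages and Tmpo (0.88) of the nuclear envelope. With an Xist term over the 12 hearts, 34 of the 52 differences were called.

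A total of 85 genes had more than 5 counts in each heart of one genotype and at most 5 in each heart of the other, and thus stood outside the comparison, 61 of them on the Lmna-/- side (32 protein-coding) and 24 on the WT side (14 protein-coding). Of all 47069 genes, 12815 passed the filter. Some of the 85 barely differed, such as Gm9947 (6, 8 and 6 counts in Lmna-/- against 5, 5 and 3 in WT hearts) and Gm14411 (5, 5 and 5 against 6, 8 and 8). The counts of the 2 sides, on raw counts, are thus a description. Cyp2b10, a xenobiotic-metabolising cytochrome, had 138, 23 and 29 counts in the Lmna-/- hearts (190 in all) and 2, 1 and 0 in the WT hearts. Tchh, trichohyalin of hair follicles, had 74, 29 and 22 counts (125 in all) against 3, 2 and 4. Mmp12, the macrophage metalloelastase, had 25, 6 and 18 counts (49 in all) against 2, 5 and 2.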

How the results depend on the processing

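At 1 month, 1249 genes were called (516 higher and 733 lower in Lmna-/-). Library size scaling gave 2756 (2520 and 236), no count filter 1983 (850 and 1133), the Xist term 4 (0 and 4) over 6 hearts, with 1593 genes at an unadjusted p under 0.05 by edgeR, and 727 (248 and 479) over 18 hearts. With WT replicate 1, 2 or 3 as the only WT heart, whose spread was assumed to be that of the other group, the calls were 472 (170 and 302), 7 (3 and 4) and 154 (59 and 95). Leaving out 1 heart gave 386 to 1210 calls, 144 to 442 higher and 242 to 768 lower. DESeq2, its size factors, the mitochondrial genome left out, filterByExpr, robust estimation, the GC correction and 18 hearts without an Xist term stayed within 1.5 times of each of the 3 counts, although robust estimation lowered the up-regulated count of some gene lists by more (10 to 5 in the fetal list). The 911 interaction calls became 552 with library size scaling, 1662 without a filter, 563 with the Xist term and 376 to 933 with 1 heart left out. Within 10 Mb of Lmna 25 genes were called, 12 in the 18-heart fit, 11 within 5 Mb and 10 to 23 with 1 heart left out. The 189 list genes became 304 with library size scaling, 2 and 101 with the Xist terms over 6 and 18 hearts, 3 with WT replicate 2 as the only WT heart and 75 to 195 with 1 heart left out. Of the within-heart ratios Acta1/Actc1 ranged from -0.124 to 0.3185 with 1 heart left out, and the other 7 kept their sign, with Myh7/Myh6 at 3.31 without Lmna-/- replicate 1 (4.11 with it). Fewer hearts lower the power of every fit that leaves 1 out, and the cause of the other changes was not tested.

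Same-numbered hearts did not deviate together at 1 month (correlations 0.219, -0.0114 and 0.118), so the numbers were not taken to pair them. With a replicate block 1564 genes were called, 1216 of them among the 1249, and 2 of 3 Lmna-/- hearts correlated best with their own number. Of the 106 named genes called, 104 kept the call with the block, 98 with DESeq2 (1 had no adjusted p), 83 with library size scaling, 87 with robust estimation, 87 over 18 hearts without an Xist term, 71 in the 18-heart fit and 3 with the Xist term over 6 hearts, and no called one changed sign in any of these. Kept signs were favoured here too, since the genes were picked as DEGs in the same hearts. Genes with means near the filter, such as Spp1 and Kcnv2, rest on few counts per heart, and depth limits calls there most.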

Other observations

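Among the genes outside the count filter was Esm1, a proteoglycan of sprouting endothelial tip cells, which had 5, 2 and 1 counts in the Lmna-/- hearts and 15, 8 and 15 counts in the WT hearts, where libraries of Lmna-/- held 10673094 to 18792377 and those of WT 13489206 to 24049579 counts. In the edgeR fit without a filter its log2 fold change was -2.15. The set was picked by these same counts, which fixed the direction, so no test of it is given. The gene was chosen after its values were seen, and genes of this set have few counts.

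Around Lmna on chromosome 3, the called genes with the largest fold changes beside Lmna itself were Ciart (log2 fold change 1.61), a repressor of the clock, Rps3a1 (-1.44) and Tdrkh (0.98), of piRNA processing. S100a13 (0.93) and S100a6 (0.61), calcium-binding proteins of a gene cluster about 2 Mb from Lmna, were higher, and Hfe2 (-0.84), which encodes the iron regulator hemojuvelin of muscle, was lower, as was Etfdh (-0.59), which feeds electrons from fatty acid oxidation to the respiratory chain. Txnip (0.91), a thioredoxin-binding protein that limits glucose uptake, was higher. The calls of S100a13, Hfe2, Etfdh and Txnip held without each heart. That of S100a6 was lost without Lmna-/- replicate 1 or WT replicate 1 or 3 (adjusted p 0.0542 to 0.0752), that of Ciart without Lmna-/- replicate 1 or 2 or WT replicate 1 or 3 (adjusted p 0.0526 to 0.0777), and that of Tdrkh without each heart other than Lmna-/- replicate 2 (adjusted p 0.0564 to 0.169). The 18-heart fit did not call S100a6 (adjusted p = 0.264), Ciart (0.136) or Txnip (0.115). A flanking effect of the targeted allele and an effect of genotype cannot be told apart for genes of this stretch.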
